A study of Mus musculus with 8 samples.

Results

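Array intensities of 9 genes of MHC class I presentation (B2m, H2-K1, H2-D1, H2-T23, Tap1, Tap2, Tapbp, Psmb8 and Psmb9) were described in mouse olfactory mucosa, the nasal lining in which olfactory neurons lie. Their values came from the probe sets whose platform symbol is one of these genes, with probe sets of a single gene preferred. Of the 9 genes, 8 are among the 8252 genes that a single-gene probe set names on the array.

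MHC class I molecules display peptides from inside a cell to CD8 T cells and natural killer cells. The proteasome cuts cytosolic proteins, the TAP1 and TAP2 transporter carries the peptides into the endoplasmic reticulum, tapasin (Tapbp) holds the transporter beside empty class I molecules, and each molecule pairs a heavy chain with beta-2-microglobulin (B2m). H2-K1 and H2-D1 are the classical heavy chains of C57BL/6 mice, and H2-T23 is a non-classical one whose product is read by natural killer cells. Psmb8 and Psmb9 replace constitutive catalytic subunits when interferon gamma is present, and interferons raise most genes of the pathway. Neurons at rest are known to carry little class I.

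Of 12488 probe sets in all, 19 named a listed gene. Single-gene probe sets numbered 15 and covered 8 of the 9 genes, and 4 were shared with other genes. H2-T23 had no probe set of its own and was read by one that also names the pseudogene H2-T-ps. Of the 15 single-gene probe sets, 13 passed the filter on dim signals, which asked for at least 2 arrays above an intensity of 362.7. One of H2-K1 and one of Tap1 exceeded it on 1 array each and were not tested. A further probe set naming 10 class I genes passed, while those naming 5 and 4 class I genes did not. Every member therefore had a measured value, H2-T23 only in the shared probe set, and 8 entered the tests through their brightest single-gene probe set.

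RNA was measured on 8 single-colour arrays, 2 in each of 4 groups: mice labelled Ccl3-/- after an injection of CCL3, the same after carrier, C57BL/6 wild-type mice after CCL3, and wild-type mice after carrier. All had lost both olfactory bulbs, the target of the olfactory neurons, so there is no unoperated group among these samples. CCL3 is a chemokine that draws macrophages and other leukocytes, and the study asked how it acts on macrophages entering the epithelium. The labels used here give no age, dose, time after surgery or strain background of the Ccl3-/- mice, and do not state that the 2 arrays of a group are separate animals. A p-value then covers no more than array-to-array spread, part of which may be technical. 

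The first check concerns the labels. The Ccl3 probe set was brighter on the arrays labelled Ccl3-/-, at 727.3 to 812.2, against 159.4 to 386.5 on wild-type arrays, with no overlap and an adjusted limma p of 0.59 for the average genotype difference. Which stretch of the gene is missing is not in the labels, and a probe set outside it checks nothing, so the groups are called by their labels. The second concerns 1 array, wild-type carrier replicate 1. Its Gapdh probe sets had a 3′ to 5′ ratio of 2.59, against 0.755 to 1.31 on the other arrays. The same ratio for actin went the other way, at 1.58, against 1.61 to 2.17 on the other arrays. This array also had the lowest intensity of Omp, a marker of mature olfactory neurons, at 4251.1 in a range to 21778.7. Over 7 markers of these neurons, log2 values minus their means over the arrays averaged -0.025 on this array. The lowest such average, -0.73, was on carrier replicate 2 labelled Ccl3-/-. Over 9 markers of supporting cells and glands, wild-type carrier replicate 1 was lowest at -1.72, against -0.097 to 0.595 on the other arrays. Several results that use wild-type carrier replicate 1 are given with and without it. The median intensity per array lay between 581.4 and 660.3, and precision is limited by having 2 arrays in a group.

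No class I presentation gene passed the test in any of the 7 comparisons, and neither did any other probe set. Genotypes were compared after CCL3 and after carrier, injections within each genotype, and both also as averages and as an interaction, fitted with limma over 8150 probe sets at an adjusted p of 0.05, so 0% of probe sets were called in each. What the 8 members showed was small and mostly negative, with medians of -0.11 on the log2 scale for genotype after carrier and -0.20 for CCL3 in wild-type mice. From array to array, the brightest probe sets of H2-K1, H2-D1 and Psmb8 had pairwise r of 0.74 to 0.84, whereas Psmb9 had one of -0.74 with H2-K1 and B2m one of -0.69 with H2-D1. In bulk tissue, fewer cells of a type and less RNA per cell cannot be told apart.

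The promoters of the heavy chains are shown because the bright probe sets of H2-K1 and H2-D1 varied together, that of Tap1 because Psmb9 starts beside it on the other strand, and that of B2m because its r with both was negative. Windows run from 250 bases before to 50 bases after the annotated start, 5′ to 3′ on the gene's own strand, from RefSeq (GRCm38.p6), which had a window for 8 of the 9 genes. Capitals mark matches, on either strand, to GGGATTCCC (the NF-kappaB core of the class I enhancer), AANNGAAA (an interferon regulatory factor core), CCAATCA (an inverted CCAAT or Y box) and TGACG (the core of cyclic AMP response elements). H2-K1 lies at chr17:34000298-34000597 on the minus strand, H2-D1 at chr17:35262844-35263143 on the plus strand, Tap1 at chr17:34187306-34187605 on the plus strand and B2m at chr2:122147437-122147736 on the plus strand.
H2-K1: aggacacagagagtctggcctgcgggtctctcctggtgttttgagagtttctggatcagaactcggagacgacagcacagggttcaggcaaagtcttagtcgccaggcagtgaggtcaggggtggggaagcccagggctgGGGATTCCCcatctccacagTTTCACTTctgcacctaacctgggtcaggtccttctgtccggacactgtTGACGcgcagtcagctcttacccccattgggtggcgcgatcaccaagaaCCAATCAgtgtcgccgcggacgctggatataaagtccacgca
H2-D1: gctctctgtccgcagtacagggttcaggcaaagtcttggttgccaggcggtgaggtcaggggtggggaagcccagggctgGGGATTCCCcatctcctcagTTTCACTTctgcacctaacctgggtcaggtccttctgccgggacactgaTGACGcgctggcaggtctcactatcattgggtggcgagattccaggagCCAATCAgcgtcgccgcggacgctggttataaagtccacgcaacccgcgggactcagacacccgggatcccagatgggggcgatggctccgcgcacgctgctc
Tap1: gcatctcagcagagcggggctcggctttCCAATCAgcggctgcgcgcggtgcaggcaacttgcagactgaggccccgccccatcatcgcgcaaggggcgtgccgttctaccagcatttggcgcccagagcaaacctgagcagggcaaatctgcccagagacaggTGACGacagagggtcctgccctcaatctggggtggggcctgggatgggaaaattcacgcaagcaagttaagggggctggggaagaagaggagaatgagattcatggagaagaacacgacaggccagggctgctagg
B2m: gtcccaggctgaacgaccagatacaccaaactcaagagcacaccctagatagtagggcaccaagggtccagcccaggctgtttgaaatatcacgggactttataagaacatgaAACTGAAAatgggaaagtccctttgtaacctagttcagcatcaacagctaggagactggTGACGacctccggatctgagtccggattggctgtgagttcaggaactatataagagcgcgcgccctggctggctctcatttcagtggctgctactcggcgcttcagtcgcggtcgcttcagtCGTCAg

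The H2-K1 and H2-D1 windows held all 4 motifs in the same order and were identical at 211 of 239 aligned bases, or 88.3%. GGGATTCCC occurred in no other member's window and in 0.353% of all 32851 windows of this length. AANNGAAA was found in the windows of H2-K1, H2-D1, H2-T23 and B2m and in 23.9% of all windows. CCAATCA stood in 5 of the 8 windows, those of the 3 heavy chains, Tap1 and Psmb9, against 7.82% of all windows. TGACG was also in 5, those of H2-K1, H2-D1, B2m, Tap1 and Psmb9, against 20.8%. No match lay in the windows of Tapbp and Psmb8, which says only that these letters are not there. The Tap1 and Psmb9 windows share 275 bases, on opposite strands, and the coding genes Psmb9, Tap1, Psmb8 and Tap2 follow one another on chromosome 17. A match is a description of the sequence and not a binding site.

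Of the heavy chains, which hold the peptide, H2-K1 was read by a bright and a dimmer probe set. The bright one read 14728 and 16708 on the arrays labelled Ccl3-/- after CCL3, 16388 and 20711 on those after carrier, 15655 and 18033 on wild-type arrays after CCL3, and 23863 and 16077 on wild-type arrays after carrier. Each group overlapped the others it was compared with, and the highest value was that of wild-type carrier replicate 1. The log2 difference of Ccl3-/- from wild type averaged -0.09 ± 0.19 (SE), and that of CCL3 from carrier -0.23 ± 0.19. Without wild-type carrier replicate 1, the genotype difference after carrier was 0.20, against -0.09 with it, and CCL3 against carrier in wild-type mice was 0.06, against -0.22 with it, so both signs rest on that array.

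The dimmer H2-K1 probe set separated the genotype labels. It read 2489 and 2762 on the arrays labelled Ccl3-/- after CCL3 and 2394 and 2421 on those after carrier, against 3376 and 3665 on wild-type arrays after CCL3 and 3013 and 3219 on wild-type arrays after carrier. All 4 arrays labelled Ccl3-/- lay below all 4 wild-type arrays, as 1.88% of all probe sets did, while 1.31% lay above. The average log2 difference was -0.38 ± 0.16 (SE), or 0.766-fold, with an interval (95%) from -0.75 to -0.02. Its adjusted limma p was 0.808. It was the only member probe set with an unadjusted p under 0.05 in any comparison, in a comparison where 2.90% of all probe sets were lower and 3.03% higher at that level. Leaving out each array in turn kept the difference between -0.42 and -0.35. Across the 8 arrays it had a Pearson r of 0.02 with the bright H2-K1 probe set, so both readings of the gene did not vary together. In the maker's naming, the suffix _f_at marks probes shared within a sequence family, and no reading of a heavy chain here is known to be specific to 1 gene.

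**Figure D1:**
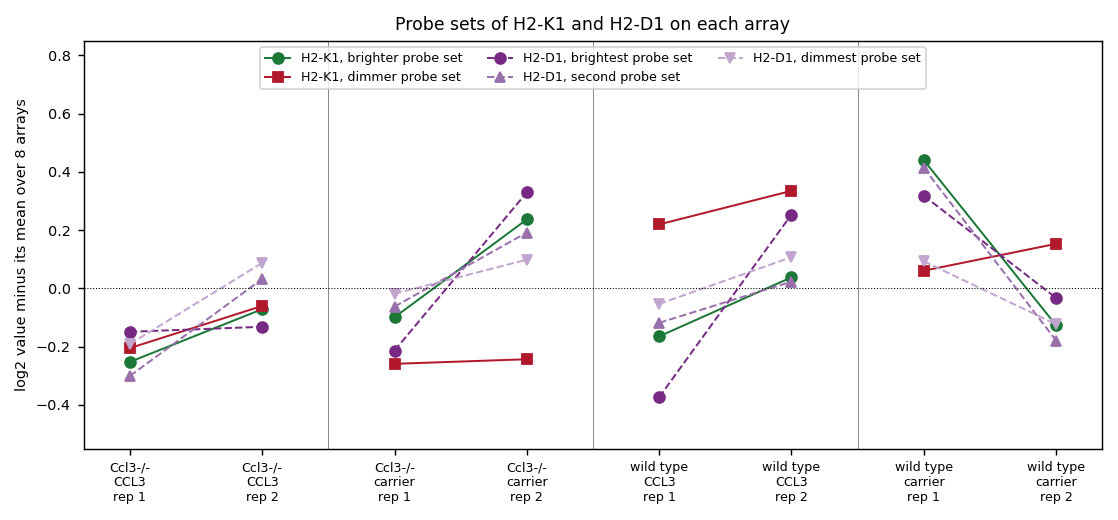
Log2 values of the tested H2-K1 and H2-D1 probe sets on each of the 8 arrays, each minus its own mean over the arrays, with lines joining the 2 replicates of a group. The dimmer H2-K1 probe set lies below its mean on all 4 arrays labelled Ccl3-/- and above it on all 4 wild-type arrays, while the other 4 probe sets vary with the array.

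H2-D1 gave 3 probe sets that passed. The brightest read 13209 and 13370 on the arrays labelled Ccl3-/- after CCL3, 12629 and 18446 on those after carrier, 11291 and 17493 on wild-type arrays after CCL3, and 18300 and 14326 on wild-type arrays after carrier. Groups overlapped in every comparison, and the replicates after carrier in Ccl3-/- and after CCL3 in wild type lay farther apart than the range of the other 4 arrays. Its log2 difference between genotypes averaged -0.08 ± 0.21 (SE) and between injections -0.20 ± 0.21. The second probe set gave -0.07 ± 0.19 and -0.18 ± 0.19, and the dimmest -0.01 ± 0.17 and -0.03 ± 0.17, so the 3 readings of this gene all stayed within their error. Without wild-type carrier replicate 1, the brightest gave a genotype difference after carrier of 0.09, against -0.08 with it. Its difference of CCL3 from carrier in wild-type mice was then -0.03, against -0.20 with that array.

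Across the arrays, bright H2-K1 and brightest H2-D1 had an r of 0.84, and bright H2-K1 and the second H2-D1 probe set one of 0.97. The probe set naming 10 class I genes had an r of 0.94 with H2-K1 and 0.90 with H2-D1. These are descriptions over 8 arrays that share group, scaling and, among family members, possibly probes. That shared probe set read 5075 and 5754 on the arrays labelled Ccl3-/- after CCL3, 5030 and 8971 on those after carrier, 5411 and 6783 on wild-type arrays after CCL3, and 8764 and 5679 on wild-type arrays after carrier.

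H2-T23 could be followed only with its pseudogene. The shared reading was 1162 and 1233 on the arrays labelled Ccl3-/- after CCL3, 664 and 1272 on those after carrier, 1052 and 1017 on wild-type arrays after CCL3, and 1488 and 934 on wild-type arrays after carrier. After CCL3 both arrays labelled Ccl3-/- were above both wild-type arrays, by 0.19 ± 0.33 (SE) on the log2 scale, an order that 16.5% of all probe sets had. In the other comparisons its groups overlapped. The average genotype difference was -0.07 ± 0.23.

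B2m, the light chain needed by every class I molecule, varied most between replicates of wild-type CCL3. It read 7499 and 7687 on the arrays labelled Ccl3-/- after CCL3, 11485 and 9099 on those after carrier, 14263 and 4862 on wild-type arrays after CCL3, and 6623 and 9407 on wild-type arrays after carrier. The lowest and the highest value of the gene stood in one group. Among arrays labelled Ccl3-/-, CCL3 gave lower values than carrier without overlap, by -0.42 ± 0.43 (SE), 0.745-fold, with an interval from -1.38 to 0.54 and an adjusted limma p of 0.977. In wild-type mice the same difference was 0.08 ± 0.43, and it ranged from -0.69 to 0.84 when replicate 1 or replicate 2 of wild-type CCL3 was left out, so no direction can be given there. The r of B2m was -0.38 with H2-K1 and -0.69 with H2-D1.

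Tap1 and Tap2, the chains of the peptide transporter, were dimmer on the arrays labelled Ccl3-/- after carrier. Tap2 read 476 and 616 on the arrays labelled Ccl3-/- after CCL3 and 387 and 536 on those after carrier, against 565 and 721 on wild-type arrays after CCL3 and 693 and 793 on wild-type arrays after carrier. The groups did not overlap after carrier but did after CCL3. The Tap2 difference was -0.59 ± 0.29 (SE) after carrier, 0.662-fold, with an interval from -1.24 to 0.05 and an adjusted p of 0.459. After CCL3 it was -0.20 ± 0.29, and the average over both injections was -0.40 ± 0.21 with an adjusted p of 0.808. Without wild-type carrier replicate 1 the difference after carrier was -0.68.

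Tap1 read 1134 and 1272 on the arrays labelled Ccl3-/- after CCL3, 1073 and 986 on those after carrier, 1066 and 1195 on wild-type arrays after CCL3, and 1405 and 1233 on wild-type arrays after carrier. In arrays labelled Ccl3-/- both CCL3 values were above both carrier values, and in wild-type arrays both were below. CCL3 minus carrier was 0.21 ± 0.24 (SE) in Ccl3-/- and -0.20 ± 0.24 in wild type, with intervals from -0.32 to 0.73 and from -0.73 to 0.32. The interaction, which tests that contrast of directions, was 0.41 ± 0.34 with an adjusted limma p of 0.908. After carrier, the genotype difference was -0.33 ± 0.24 without overlap, with an adjusted p of 0.581, and after CCL3 it was 0.08 ± 0.24. Without wild-type carrier replicate 1 the difference after carrier was -0.24. The second Tap1 probe set stayed under the filter on 7 arrays, and reached 608.5 on wild-type carrier replicate 2 only.

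Tapbp, which links the transporter to the waiting class I molecule, gave 3 readings that did not always share a sign. The brightest read 5148 and 8467 on the arrays labelled Ccl3-/- after CCL3, 5127 and 10792 on those after carrier, 8203 and 6072 on wild-type arrays after CCL3, and 8066 and 7878 on wild-type arrays after carrier. Its groups overlapped in every comparison, and the genotype difference averaged -0.10 ± 0.26 (SE). The second probe set gave -0.67 ± 0.42 for CCL3 against carrier in wild-type mice, and the third was higher after CCL3 than after carrier on arrays labelled Ccl3-/-, at 0.27 ± 0.30 without overlap. Their r with the brightest was 0.53 and -0.49. After CCL3, the genotype difference was -0.09 ± 0.37 in the brightest and 0.29 ± 0.42 and 0.16 ± 0.30 in the others, while after carrier all were negative.

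**Figure D2:**
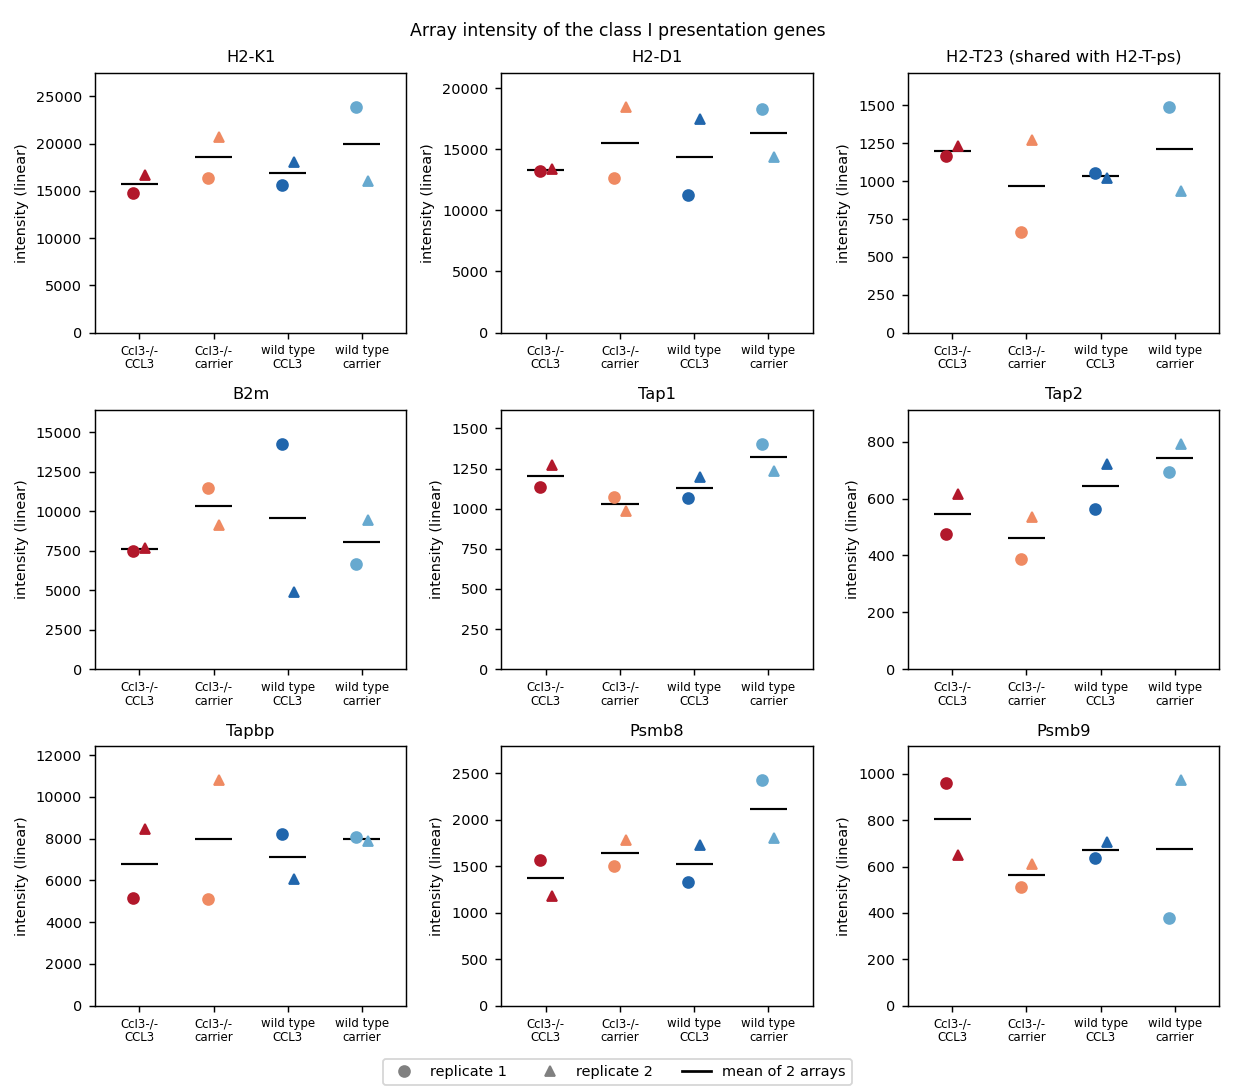
Deposited linear intensity of each of the 9 genes on every array, by group, with circles for replicate 1, triangles for replicate 2 and a line at the mean of 2 arrays. Each panel has its own axis from 0. Replicates of a group often lie as far apart as groups do, as for B2m after CCL3 in wild type (14263 and 4862), while Tap2 after carrier is at 387 and 536 on arrays labelled Ccl3-/- and at 693 and 793 on wild-type arrays.

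Psmb8 and Psmb9, the inducible proteasome subunits, did not vary together. Psmb8 read 1568 and 1180 on the arrays labelled Ccl3-/- after CCL3, 1504 and 1783 on those after carrier, 1329 and 1724 on wild-type arrays after CCL3, and 2425 and 1806 on wild-type arrays after carrier. Both wild-type carrier arrays exceeded all others. CCL3 against carrier gave -0.44 ± 0.27 (SE) in wild type without overlap, 0.736-fold, with an adjusted limma p of 0.911, and -0.25 ± 0.27 in Ccl3-/- with overlap. The genotype difference after carrier was -0.34 ± 0.27 with an adjusted p of 0.621. Without wild-type carrier replicate 1, these wild-type and genotype differences were -0.24 and -0.13.

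Psmb9 read 958 and 651 on the arrays labelled Ccl3-/- after CCL3, 514 and 609 on those after carrier, 638 and 705 on wild-type arrays after CCL3, and 379 and 972 on wild-type arrays after carrier. The wild-type carrier pair spanned all other values. In arrays labelled Ccl3-/-, CCL3 values were above carrier values by 0.43 ± 0.38 (SE), 1.35-fold, with an interval from -0.42 to 1.28 and an adjusted limma p of 0.97. After carrier the genotype difference was -0.12 ± 0.38, and it ranged from -0.70 without wild-type carrier replicate 1 to 0.46 without replicate 2. CCL3 against carrier in wild-type mice was 0.11 ± 0.38. That difference ranged from -0.474 without wild-type carrier replicate 1 to 0.685 without replicate 2. The r of Psmb9 was -0.34 with Psmb8, -0.74 with H2-K1 and -0.21 with Tap1, whose start lies in the shared window printed above. Psmb8 in turn had an r of 0.74 with H2-K1 and 0.76 with H2-D1.

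**Figure D3:**
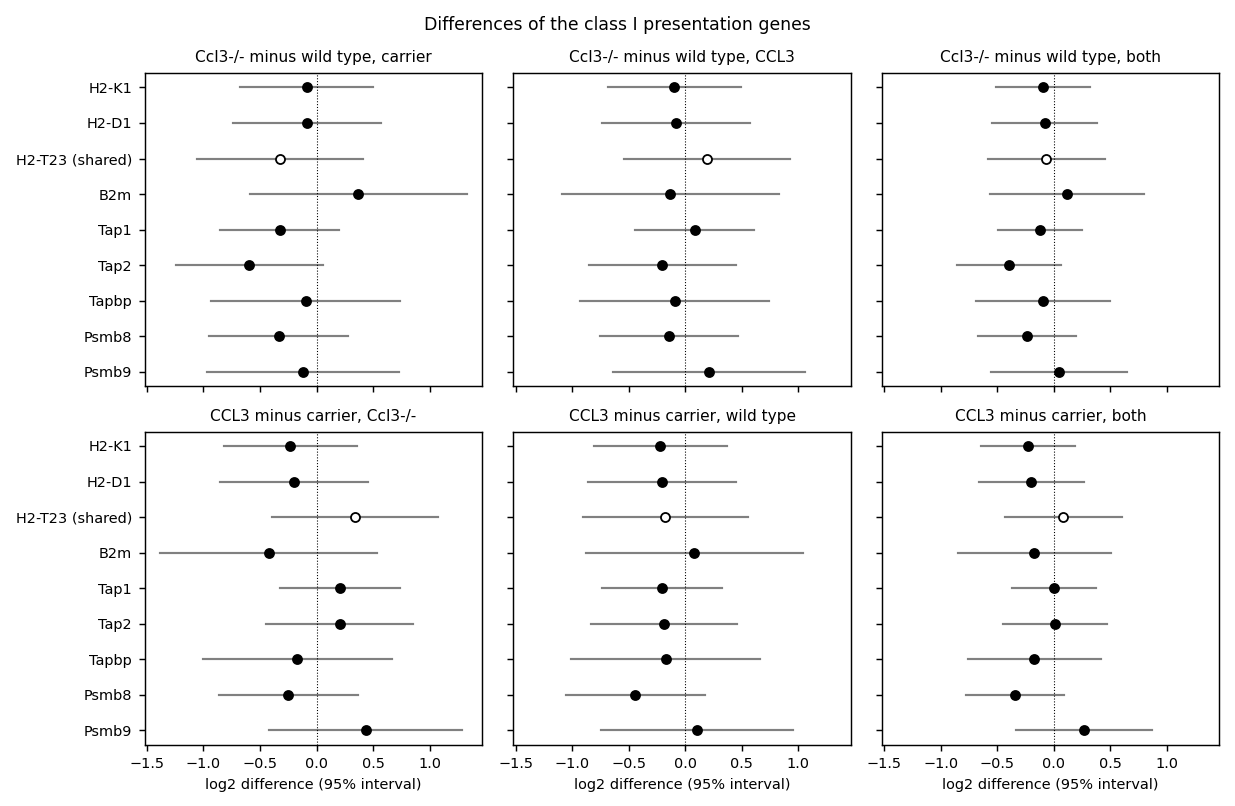
Log2 differences of the 9 genes in 6 comparisons, points with 95% intervals from limma, H2-T23 as an open circle because its probe set is shared. All intervals cross 0, and the farthest from it is Tap2 in Ccl3-/- minus wild type after carrier, at -0.59.

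Counted over the 8 members with a probe set of their own, 1 was higher and 7 were lower in Ccl3-/- than in wild type after carrier, with a median of -0.11 beside -0.03 over all probe sets. Psmb8, Tap1 and Tap2 were lower without overlap, that is 3 of 8, in a comparison where 22.9% of all probe sets were lower and 15.6% higher in that way. None had an unadjusted p under 0.05, against 5.03% higher and 6.40% lower over all. Without carrier replicate 1 of the arrays labelled Ccl3-/-, the median was 0.03, and without wild-type carrier replicate 2 it was -0.32. Without wild-type carrier replicate 1 the median was -0.11 again, but H2-K1 and H2-D1 changed sign, to 0.20 and 0.09. B2m stayed positive, and Tap1, Tap2, Tapbp, Psmb8 and Psmb9 stayed negative. After CCL3, 2 members were higher and 6 lower, with a median of -0.10 beside 0.02 over all. No member was without overlap there, against 16.5% higher and 12.9% lower over all, and none had an unadjusted p under 0.05, against 0.822% and 0.663%.

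CCL3 against carrier gave 3 members higher and 5 lower on arrays labelled Ccl3-/-, with a median of -0.18 beside 0.03 over all probe sets. Tap1 and Psmb9 were higher and B2m lower without overlap, against 22.9% higher and 16.0% lower over all. No member had an unadjusted p under 0.05, where 2.77% of all were higher and 2.12% lower. Without carrier replicate 2 of those arrays the median was 0.11. In wild-type mice 2 members were higher and 6 lower, with a median of -0.20 beside -0.02 over all. Psmb8 and Tap1 were lower without overlap, against 12.0% higher and 18.1% lower over all, and none had an unadjusted p under 0.05, against 1.98% and 2.32%. The median was -0.16 without wild-type carrier replicate 1. Comparisons that share arrays, such as genotype after carrier and CCL3 in wild type, are not independent of each other.

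In the interaction, 6 members were positive and 2 negative, with a median of 0.10 beside 0.04, and 3.19% of all probe sets were positive and 1.87% negative at an unadjusted p under 0.05. That median was -0.01 without wild-type carrier replicate 1. Averaged over injections, 2 members were higher and 6 lower in Ccl3-/- than in wild type, with a median of -0.10 beside -0.01 over all. Averaged over genotypes, 3 were higher and 5 lower after CCL3 than after carrier, with a median of -0.17 beside 0.01. No brightest member probe set was without overlap in the CCL3 average, where 1.58% of all probe sets were higher and 1.14% lower, and none had an unadjusted p under 0.05, where 2.36% were higher and 2.17% lower.

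The replicates of a group differed about as much in the members as in all probe sets. The median absolute log2 difference between the 2 arrays of a group over the members was 0.25 in Ccl3-/- after CCL3, 0.33 in Ccl3-/- after carrier, 0.33 in wild type after CCL3 and 0.38 in wild type after carrier. Over all probe sets it was 0.22, 0.33, 0.27 and 0.43 in the same groups. The mean of the members' z-scores on each array was -0.42 and -0.13 on the arrays labelled Ccl3-/- after CCL3, -0.65 and 0.29 on those after carrier, -0.25 and 0.05 on wild-type arrays after CCL3, and 0.66 and 0.45 on wild-type arrays after carrier. Both wild-type carrier arrays had the highest values, and the Ccl3-/- carrier pair spanned most of the range. Of 7344 single-gene probe sets outside the members, the ones with the highest Pearson r to this mean over the 8 arrays were Ski at 0.943, Pitx1 at 0.93, Auh at 0.928, R3hcc1 at 0.927 and Plec at 0.925. The lowest were Dnttip2 at -0.94, Stx7 at -0.922, Clcn3 at -0.91, Zranb2 at -0.909 and Gle1 at -0.899. Both sets are the ends of 7344 values over only 8 arrays, so they describe these arrays and no link to class I was tested.

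The other genes of the pathway were followed as lists, and no gene of any list passed the adjusted threshold. Of 14 constitutive subunits of the 20S proteasome core, all measured, 13 were higher and 1 lower in Ccl3-/- than in wild type after carrier, with a median of 0.47, where 47.9% of all probe sets were higher and 52.1% lower. Psmb6, the catalytic subunit that Psmb9 replaces, had the smallest p of them, at 0.91 ± 0.33 (SE) with an adjusted limma p of 0.398, and Psmb4 was the lower one at -0.05 ± 0.29. Of the 14, 5 were higher without overlap, against 15.6% of all probe sets. The summed intensity of the 14 was higher on replicate 1 than on replicate 2 in every group. It was 107884 and 86929 in wild type after carrier and 131766 and 121802 in Ccl3-/- after carrier. After CCL3 it was 114897 and 95924 in wild type and 107788 and 94298 in Ccl3-/-. Some subunits, such as Psmb2 after carrier, had the opposite order. The 14 therefore should not be read as separate readings of genotype. CCL3 against carrier on arrays labelled Ccl3-/- gave 1 higher and 13 lower, with a median of -0.32, where 54% of all probe sets were higher and 46% lower. In wild-type mice it gave 11 higher and 3 lower, with a median of 0.20 that ranged from -0.11 to 0.45 as arrays were left out. After CCL3 the genotypes split 8 to 6 with a median of 0.07. These comparisons share carrier or CCL3 arrays, so they are not independent. Without wild-type carrier replicate 2 the genotype median after carrier was 0.21. Other lists differed in the same comparisons: neutrophil marker sums, given below, were higher in Ccl3-/- after carrier. Lower there were olfactory precursor markers in 9 of 10, with a median of -0.50, and B cell markers in 6 of 6, with a median of -0.79. For CCL3 against carrier in Ccl3-/-, precursor markers were higher in 9 of 10, with a median of 0.39, and red blood cell markers in 6 of 6, with a median of 1.11. The part of these cells in the proteasome and class I values was not tested.

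Set beside them after carrier, the inducible subunits gave -0.34 ± 0.27 (SE) for Psmb8, -0.12 ± 0.38 for Psmb9 and 0.26 ± 0.32 for Psmb10, the third inducible subunit. Psmb10 read 2612 and 2322 on the arrays labelled Ccl3-/- after CCL3, 2045 and 3222 on those after carrier, 1831 and 2320 on wild-type arrays after CCL3, and 2711 and 1664 on wild-type arrays after carrier. Its groups overlapped after carrier.

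**Figure D4:**
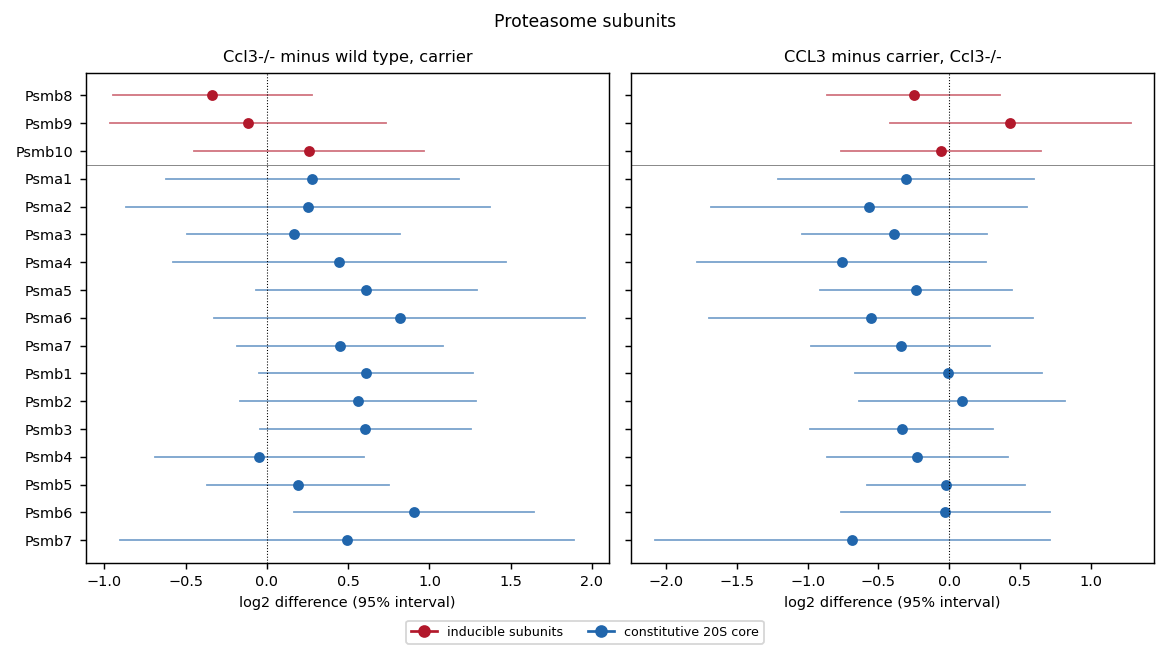
Log2 differences with 95% intervals of the 3 inducible proteasome subunits, in red, and the 14 constitutive core subunits, in blue, for Ccl3-/- minus wild type after carrier and CCL3 minus carrier in Ccl3-/-. Of the 14 constitutive subunits, 13 lie right of 0 in the left panel and 13 left of 0 in the right panel, and only the interval of Psmb6 in the left panel excludes 0.

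Other class I heavy chains and class I-like genes, of which 12 of 17 on the array passed the filter, had a median of -0.24 for genotype after carrier, with 4 higher and 8 lower. H2-Bl was at -0.60 ± 0.25 (SE) and Mr1, which presents vitamin B metabolites, at 1.05 ± 0.52. After CCL3, H2-M3, which presents formylated peptides, was at -1.31 ± 0.38, with an adjusted limma p of 1. Among 9 genes of peptide loading, trimming and proteasome activation, 7 were higher and 2 lower in Ccl3-/- after carrier, with a median of 0.26. Hsp90b1, an endoplasmic reticulum chaperone, was at 0.99 ± 0.30 and Psme1, a subunit of the proteasome activator PA28, at 0.89 ± 0.34. Canx, which holds newly made heavy chains, was at -0.59 ± 0.32.

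Interferon signalling genes and interferon-induced genes had medians nearer 0 after carrier than the members. The 23 interferon and class I regulators that passed the filter split 11 higher to 12 lower in Ccl3-/- after carrier, with a median of -0.03, and in the other 3 paired comparisons their medians lay between -0.011 and -0.003. Socs3, an inhibitor of cytokine signalling, was at 1.16 ± 0.30 (SE) after carrier in Ccl3-/- against wild type and at -1.14 ± 0.30 for CCL3 against carrier in Ccl3-/-, and these share the Ccl3-/- carrier arrays. The 24 interferon-induced genes split 13 to 11 after carrier, with a median of 0.02, and 9 higher to 15 lower for CCL3 in wild type, with a median of -0.13. Ifi30, a lysosomal thiol reductase, was at 1.30 ± 0.34, and Ifitm2, an antiviral membrane protein, at -1.07 ± 0.39. Iigp1, an interferon-induced GTPase, was at -1.89 ± 0.47 for CCL3 against carrier in Ccl3-/- and -1.10 ± 0.47 in wild type, with adjusted p of 0.722 and 0.911.

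**Figure D5:**
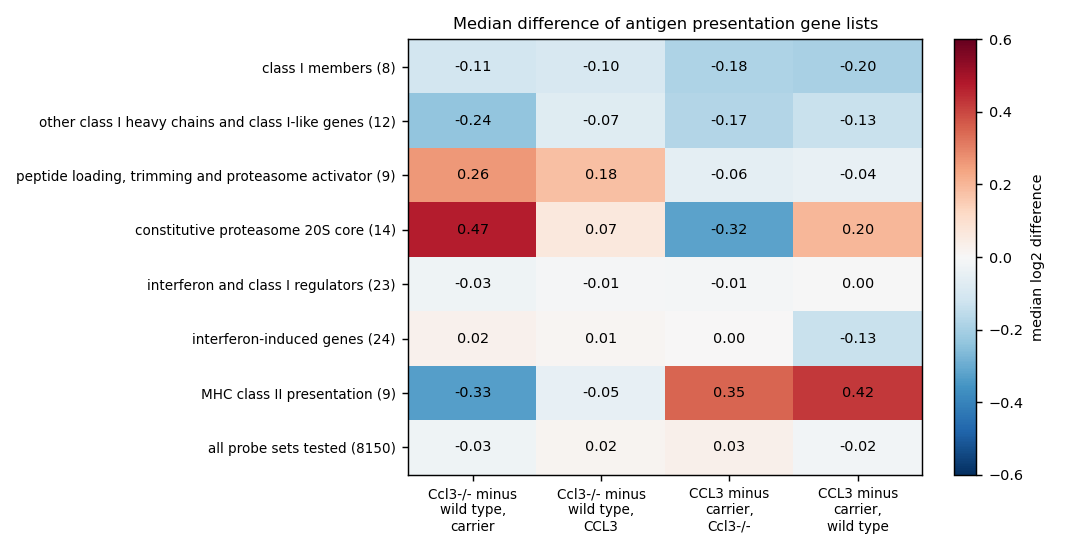
Median log2 difference of each gene list in 4 comparisons, with the number of genes that passed the filter in brackets and all 8150 probe sets in the bottom row. The members range from -0.20 to -0.10, the constitutive core from -0.32 to 0.47, and the interferon lists lie near 0 except -0.13 in wild type.

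The cells that read or carry class I were followed through marker lists. Of 15 T and natural killer cell markers on the array, 3 passed the filter, and the T cell markers Cd3e, Cd3d and Cd3g stayed at or below 188.2, 130.2 and 61.3 on every array. Summed over all 15, the intensity was 2691 and 2037 on the arrays labelled Ccl3-/- after CCL3, 2040 and 1839 on those after carrier, 2701 and 2728 on wild-type arrays after CCL3, and 2706 and 3327 on wild-type arrays after carrier. The 8 B cell markers on the array, of which 6 passed, summed after carrier to 2573 and 4596 in Ccl3-/- against 4075 and 6187 in wild type. All 6 were lower in Ccl3-/- there, with a median of -0.79, and 4 of them without overlap, against 22.9% of all probe sets. The 18 macrophage and dendritic cell markers, of which 14 passed, summed to 36351 and 41929 in Ccl3-/- after carrier against 32026 and 43114 in wild type. The 14 neutrophil markers, of which 12 passed, summed to 126656 and 179369 in Ccl3-/- after carrier against 102687 and 91194 in wild type, without overlap. Ltf and Lcn2, the brightest of them, weigh most in that sum, at 40153 to 82472 and 29017 to 76855 over all arrays. Of the 12, 9 were higher and 3 lower, with 5 higher and 1 lower without overlap, against 15.6% and 22.9% of all probe sets. The part of these cells in the class I values was not tested. MHC class II genes, with 9 of 11 passing, had a median of -0.33 after carrier, with 4 higher and 5 lower. On single carrier arrays the median of their log2 values, each minus its mean over all arrays, was -0.32 and -0.18 in Ccl3-/- against -0.79 and 0.45 in wild type, so wild-type replicate 1 lay below both Ccl3-/- arrays and that direction rests on replicate 2. H2-Ab1, a class II beta chain, was at -1.42 ± 0.24 (SE) with an adjusted limma p of 0.363.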

How the data were processed

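RNA of olfactory mucosa was measured on 8 single-colour arrays, grouped by the sample titles. The deposited table holds 1 linear intensity per probe set and array, as the authors made it. The software is not given in the sources used here. Means after trimming 2% at each end agreed within 0.00834%, so values were taken as already scaled. Differences are on the log2(value + 102.3) scale computed from the deposited values, with the 20th percentile as pseudocount, so they understate changes of dim genes. Array control probes were left out. Probe sets with at least 2 arrays above 362.7, the 40th percentile, were tested: 8150 probe sets of 6181 genes. limma 3.58.1 (R 4.3.3) fitted the 4 groups together with an intensity trend and 4 residual degrees of freedom, and p-values were adjusted by Benjamini-Hochberg over all probe sets. Of 12488 probe sets, 10855 had 1 symbol, 396 several and 1237 none. RefSeq records were missing for 16 of the named ones. GRCm38.p6 served for names, neighbours and promoters.

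The members and lists were chosen with earlier results of these data known. All members are named; of each list, up to 3 genes in a comparison, at most 2 in a direction, by smallest p; and the 5 genes most and least like the members' mean z-score. Alternatives were quantile, median and cyclic loess normalization, other pseudocounts and filters, no trend, a replicate block, only the groups compared, 2 groups of 4, all probe sets of a member, and each array left out. Those of the 20S core and the dimmer H2-K1 probe set were added after seeing the data. The fit was tested on simulated data.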

Additional observations from a re-analysis of the deposited data

Results flagged for a closer look

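Tap1 was marked because its CCL3 and carrier arrays, which are separate samples, did not overlap in either genotype and had opposite orders in the genotypes. CCL3 minus carrier was 0.21 on the log2 scale in Ccl3-/-, where both CCL3 arrays were above both carrier arrays, and -0.20 in wild type, where both were below. The interaction of 0.41 ± 0.34 (SE) had an adjusted limma p of 0.908, so the difference between the genotypes did not pass the test.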

How the results depend on the processing

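Over all settings tried, each of the 993 alternative values of the 8 members stayed on its side of the threshold, with a smallest adjusted limma p of 0.257 (Psmb9, CCL3 average, without wild-type carrier replicate 2). Tap2 has no value under the 60th percentile filter, which it did not pass. The number of probe sets called was 0 in the main setting; with the replicate block it was 1 for genotype after carrier, 1 for the genotype average and 1 for the CCL3 average. The labels do not say what a replicate number shares between groups. Over all probe sets, the groups' deviations of replicate 1 correlated at -0.158 to 0.178, and the main fit does not use the number. Such correlations cannot exclude a shared effect on some genes. The summed intensity of the 20S core, given above, was higher on replicate 1 in all 4 groups. With only the groups compared, the number called was 1 for genotype after CCL3, and with 2 groups of 4 arrays it was 2 for the genotype average. Leaving out an array gave 0 to 110 for genotype after carrier, 0 to 73 for CCL3 in wild type and 0 to 23 for the CCL3 average, the highest each time without wild-type carrier replicate 2. That setting leaves the group with replicate 1 alone, the array with a Gapdh ratio of 2.59 but the lowest actin ratio, 1.58. In each such setting the lone array of a group is assumed to vary like the other groups. It gave 0 to 1 for genotype after CCL3, for CCL3 in Ccl3-/- and for the genotype average, and 0 for the interaction. None of those calls was a tested brightest probe set of a member. The members' median moved by more than its spread between replicates, 0.12, in some settings. Leaving out an array gave -0.316 to 0.033 for genotype after carrier, -0.312 to 0.111 for CCL3 in Ccl3-/-, -0.051 to 0.342 for the interaction and -0.200 to -0.046 for the CCL3 average. Averaging all probe sets of a member gave -0.005 for CCL3 in Ccl3-/- and 0.26 for the interaction. The causes were not tested. The number of arrays, 2 in a group, limits every value, and intensities near the filter limit Tap2 and Psmb9.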
